A study of Mus musculus with 24 samples.

Results

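This comparison sets mouse primordial germ cell-like cells (PGCLCs) against day 2 epiblast-like cells (EpiLCs), the population from which they had been induced. Its members are 4 of the 24 array samples of the study, 2 of PGCLCs and 2 of day 2 EpiLCs, taken by their labels from the arrays that were hybridised without prior PCR amplification (unamplified arrays). All cells carried the C57BL/6 background, and no transgene is named in the labels used here. Embryonic stem cells (ESCs) had been kept without feeder cells in a medium with 2 kinase inhibitors and leukaemia inhibitory factor (2i+LIF); these ESCs gave rise to EpiLCs, and EpiLCs of day 2 gave rise to PGCLCs. The labels used here give neither the number of days in PGCLC culture nor a sort or gate, and they call the arrays of a group biological replicates without saying whether these were separate cultures. P-values therefore measure the spread between these samples, which may be technical.

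Primordial germ cells are the embryonic precursors of sperm and eggs. In the mouse embryo they arise from the posterior epiblast under bone morphogenetic protein (BMP) signals, and they then erase much of their DNA methylation while retaining genes of pluripotency. EpiLCs resemble the epiblast before gastrulation and are competent for this induction. The description below turns to functions beyond the germ cell and pluripotency genes: signalling, cell contacts, metabolism, growth and chromatin.

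RNA levels were read with Affymetrix mouse genome arrays, for which 1 linear intensity per probe set was deposited. Each gene was read from its brightest probe set. Intensities under 4.2 were raised to that floor, and genes above 28.1 on at least 2 of the 12 unamplified arrays were tested. Differences are given as log2 PGCLC minus EpiLC with the standard error (SE) of the limma fit, with n = 2 arrays per group, and a gene was called at an adjusted p under 0.05 and a log2 difference of at least 1 in size. Where the dimmer group lay under 28.1, the fitted log2 difference and its rank depend on the floor, and a fold is stated only as a lower bound against 28.1. Each array description begins with a code whose meaning is not stated (array code). The second arrays of both groups share a code, but the code of the first PGCLC array is on no EpiLC array. Array code and group are therefore partly confounded. The median intensity was 45 and 45.6 on the EpiLC arrays and 41.1 and 43.3 on the PGCLC arrays. The correlation between replicates was 0.987 for EpiLCs and 0.976 for PGCLCs, and 6.32% of tested genes differed by at least 2-fold between the PGCLC arrays, against 1.45% between the EpiLC arrays. The PGCLC replicates were thus further apart, and with 2 arrays per group the precision of every value below is limited. The SE and p-values use 1 spread per gene from all 12 unamplified arrays. They may therefore understate the spread between the PGCLC arrays.

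The labels were checked against markers of both states. The germ cell regulator Prdm14 read 5.88 and 7.77 on the EpiLC arrays and 1591 and 1768 on the PGCLC arrays, and the germ cell repressor Prdm1 read 32.6 and 34.4 on the EpiLC arrays and 923 and 1233 on the PGCLC arrays. Tfap2c, Dppa3 and Nanog were also higher in PGCLCs (4.87, 4.10 and 1.44 on the log2 scale). The epiblast growth factor Fgf5 read 857 and 899.5 on the EpiLC arrays and 5.46 and 2.63 on the PGCLC arrays. Pou5f1, which both states express, differed by 0.05 ± 0.07 SE and was not called (limma adjusted p = 0.598). The arrays of both groups thus carried the markers of their labels.

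Of 14934 genes tested, 1311 were higher in PGCLCs (8.78%) and 1771 were lower (11.9%). The arrays of both groups did not overlap for 32.6% of genes with PGCLCs above and for 40.6% with EpiLCs above, so a lack of overlap between 2 and 2 arrays is common here. The direction of the surplus depended on scaling. The median difference over all tested genes was -0.09 on the log2 scale as deposited and 0.07 after each array was centred on its median, and the split then became 1655 higher and 1439 lower, so that 53.5% of calls were higher instead of 42.5%. Quantile normalization gave 1454 higher and 1558 lower. Of the 3082 called genes, 2328 were called in all 4 fits that left out 1 array of these groups. The cells of a group were measured in bulk, so fewer cells of a type and less RNA per cell cannot be told apart in any of these values.

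A second pair of groups with the same labels had been amplified by PCR before hybridisation. These arrays were fitted apart, and they called 1010 of 15608 genes higher (6.47%) and 975 lower (6.25%). The replicate numbers pair these arrays, and with the number as a block 1325 were higher and 1321 lower. Of the 2944 called genes that were also tested there, 93.9% had the same sign. In the fit without the block 48.4% were called the same way and 2 the opposite way, and with it 57.8% and 9. Amplified counts below come from the fit without the block. For the gene lists the count with it is added where either direction moved by over 1.5 times. The amplified count of 1985 calls fell to 1170 without the first PGCLC array, 1013 without the second and 1223 without the first EpiLC array. Amplified labelling favoured 3′ ends: the ratio of 5′ to 3′ signal for Actb was 0.0503 to 0.206 on amplified arrays and 0.792 to 0.874 on unamplified arrays. Its part in single differences was not tested.

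**Figure D1:**
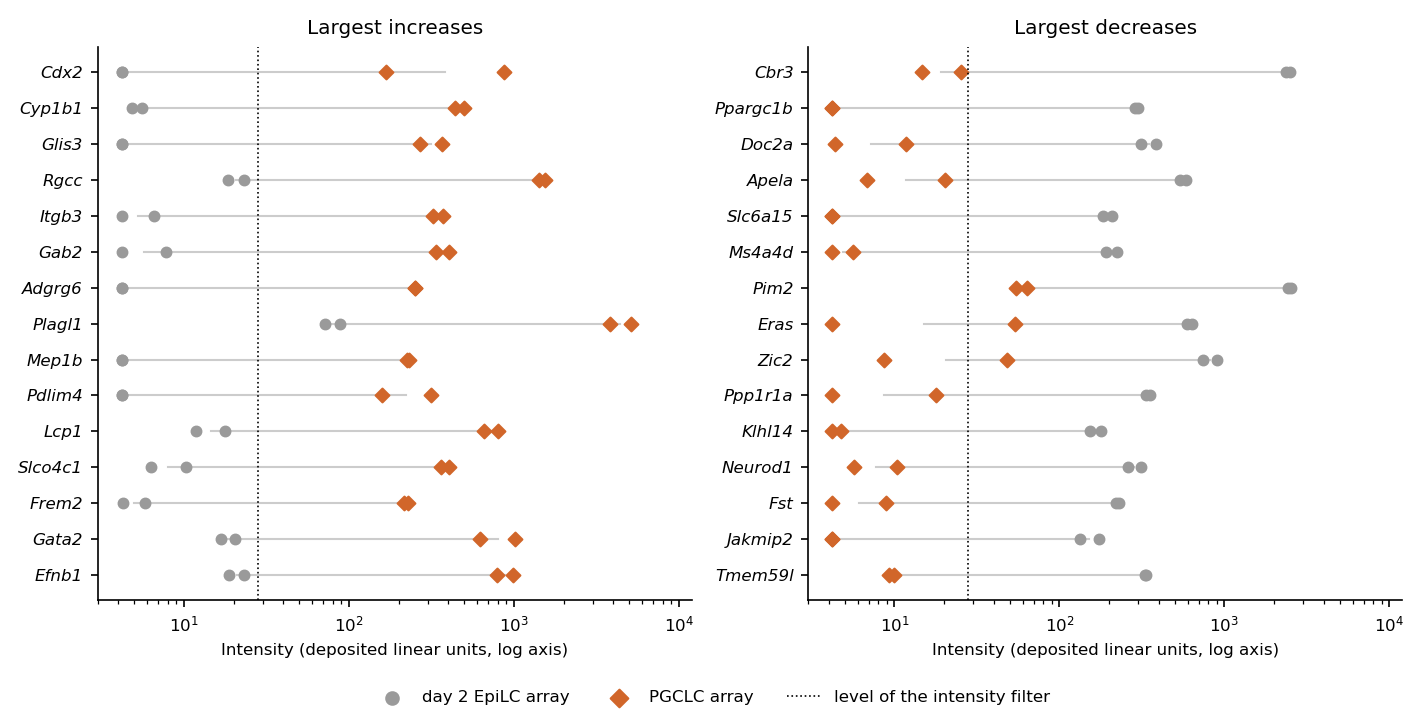
Intensity on a log axis (deposited linear units, raised to a floor of 4.2) of the 15 genes with the largest increase (left) and the 15 with the largest decrease (right) outside the germ cell and pluripotency marker lists. Circles are day 2 EpiLC arrays, diamonds are PGCLC arrays, the grey line joins the group means and the dotted line marks the filter level of 28.1; Plagl1 and Pim2 are above that level on all 4 arrays.

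Of the 15 largest increases, that of Plagl1, an imprinted zinc finger gene, reached the highest level in PGCLCs. It read 71.4 and 88 on the EpiLC arrays and 3828 and 5103 on the PGCLC arrays (log2 difference 5.80 ± 0.13 SE, limma adjusted p = 1.72e-10). The 3 probe sets of Plagl1 ranged from 0.72 to 5.83. Rgcc, a regulator of the cell cycle, read 18.6 and 23.1 on the EpiLC arrays and 1537 and 1428 on the PGCLC arrays, which is at least 52.7-fold higher (limma adjusted p = 3.07e-10). Lack of overlap between the groups was a condition for the choice of these 15 genes. Both Plagl1 and Rgcc were higher on amplified arrays as well. Lcp1, an actin-bundling protein known from leukocytes, read 17.7 and 11.9 on the EpiLC arrays and 805 and 659.7 on the PGCLC arrays and was at least 25.9-fold higher. Gata2, a zinc finger factor of blood and trophoblast progenitors, read 20.4 and 16.8 on the EpiLC arrays and 624 and 1018 on the PGCLC arrays and was at least 28.4-fold higher. For Efnb1, a membrane-bound ligand of Eph receptors, the values were 23.2 and 18.8 on the EpiLC arrays and 789 and 992 on the PGCLC arrays, at least 31.5-fold higher. These 3 genes were below the filter level on both EpiLC arrays. The caudal homeobox gene Cdx2 read 1.45 and 1 on the EpiLC arrays and 168 and 873 on the PGCLC arrays and was at least 13.6-fold higher (limma adjusted p = 4.7e-06), a smaller bound than that of Rgcc, Efnb1, Gata2 or Lcp1. Its PGCLC arrays lay far apart. On amplified arrays its log2 difference was 2.33, not called without the replicate number as a block (limma adjusted p = 0.061) and called with it (limma adjusted p = 0.0341). Cyp1b1, an oxidising enzyme of the cytochrome P450 family, read 4.87 and 5.55 on the EpiLC arrays and 442 and 501 on the PGCLC arrays. Itgb3, an integrin subunit, read 6.59 and 3.71 on the EpiLC arrays and 373 and 325 on the PGCLC arrays. The adaptor gene Gab2 was at least 13.1-fold higher on its brightest probe set, while the other 2 of its 3 probe sets had the opposite sign (log2 down to -0.54). The other genes among the 15 were Glis3, Adgrg6, Mep1b, Pdlim4, Slco4c1 and Frem2, all 6 under the filter level on both EpiLC arrays and higher by at least 7.85-fold (Frem2) to at least 13.6-fold (Slco4c1).

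Of the 15 largest decreases, that of Cbr3, a carbonyl reductase, started from a high level in EpiLCs. It read 2481 and 2348 on the EpiLC arrays and 25.3 and 14.6 on the PGCLC arrays, which is at least 85.9-fold lower in PGCLCs (limma adjusted p = 6.5e-10). Pim2, a kinase that supports survival and growth, read 2550.2 and 2435 on the EpiLC arrays and 54.9 and 63.6 on the PGCLC arrays (log2 difference -5.40 ± 0.08 SE, limma adjusted p = 2.51e-11). Both PGCLC arrays of Pim2 stayed above the filter level. Apela, which encodes a peptide hormone of early embryos, read 536 and 586 on the EpiLC arrays and 20.2 and 6.8 on the PGCLC arrays and was at least 20-fold lower. Eras, a Ras-like gene of embryonic stem cells, read 639 and 596 on the EpiLC arrays and 53.8 and 3.56 on the PGCLC arrays. The PGCLC arrays of Eras lay 1 above and 1 below the filter level, and its SE was 0.81. Ppargc1b, a coactivator of mitochondrial genes, read 288 and 299 on the EpiLC arrays and 1 and 1 on the PGCLC arrays and was at least 10.4-fold lower. Neurod1, a transcription factor of neurons, read 259 and 312 on the EpiLC arrays and 5.71 and 10.4 on the PGCLC arrays, and Doc2a, a calcium sensor of synaptic vesicle release, read 314 and 385 on the EpiLC arrays and 4.35 and 11.8 on the PGCLC arrays. Zic2, a zinc finger gene of the neural plate, read 897 and 743 on the EpiLC arrays and 48.1 and 8.66 on the PGCLC arrays. The activin antagonist Fst read 229.8 and 221 on the EpiLC arrays and 2.33 and 8.93 on the PGCLC arrays. Slc6a15, Ms4a4d, Ppp1r1a, Klhl14, Jakmip2 and Tmem59l completed the 15, each under the filter level on both PGCLC arrays and lower by at least 5.41-fold (Jakmip2) to at least 12.2-fold (Ppp1r1a).

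The functions below are described by 47 gene lists with 733 tested genes, of which the share called is read against the 8.78% higher and 11.9% lower of all tested genes. Where limma called 0 members in a direction, the number with an unadjusted p under 0.05 in that direction, whatever its size, is given beside the count; over all tested genes that number was 4103 higher and 4801 lower. List medians near 0 have no stable direction: that of 10 lists changed sign when 1 array was left out. Without the first PGCLC array this held for FGF and ERK (-0.22), streak and mesoderm (0.13) and endothelial and blood genes (0.25). Without the second it held for hypoxia (0.26), DNA methylation (0.17), H3K9 (0.011), Polycomb (-0.0008) and Hox genes (-0.23). Without the first EpiLC array it held for DNA methylation (0.015) and streak and mesoderm (0.069), and without the second for gap junctions (-0.0045), hypoxia (0.0061), imprinted (-0.04) and Hox genes (-0.05). The amplified median had the opposite sign in 15 lists.

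**Figure D2:**
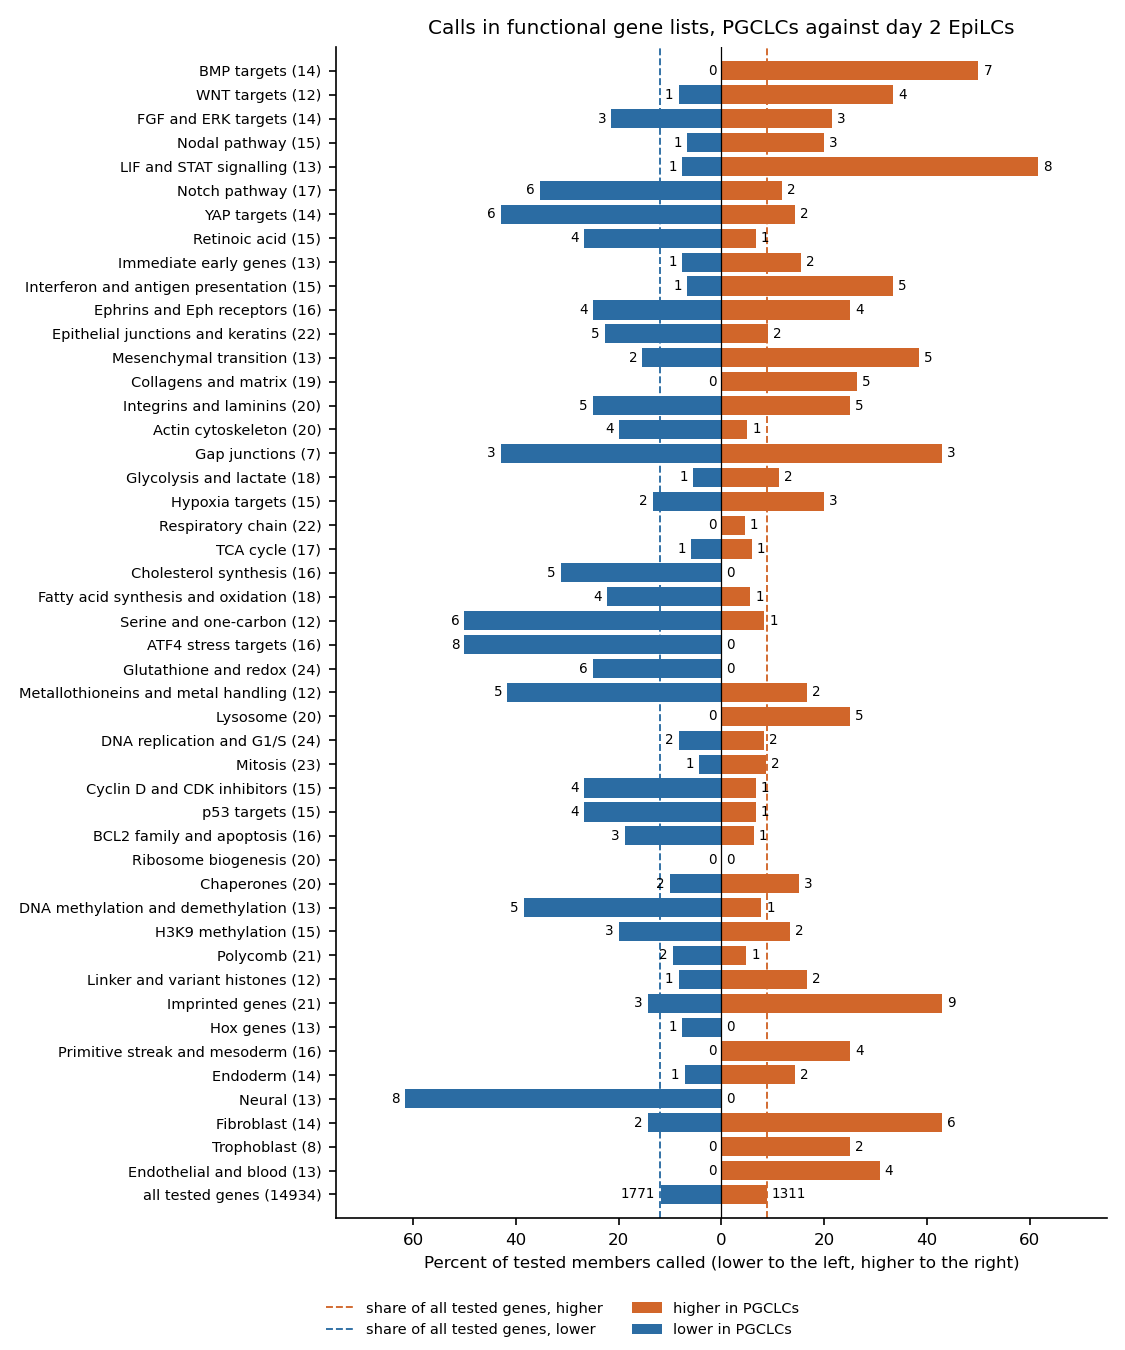
Percent of the tested members of each of 47 lists called higher (right, orange) or lower (left, blue) in PGCLCs, with the number called beside each bar and the number tested in brackets. Dashed lines mark 8.78% higher and 11.9% lower, the shares over all 14934 tested genes; LIF and STAT signalling reaches furthest to the right with 8 of 13 and the neural list furthest to the left with 8 of 13.

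Many genes of cytokine signalling through LIF, gp130 and STAT3 were higher in PGCLCs. In this pathway LIF binds a receptor pair and activates Janus kinases, which phosphorylate STAT3. Of 13 tested members, 8 rose and 1 fell, with a median of 1.45. The feedback inhibitor Socs3 read 87.7 and 113 on the EpiLC arrays and 1356 and 752 on the PGCLC arrays (log2 difference 3.35 ± 0.21 SE, limma adjusted p = 2.81e-07). The shared receptor chain Il6st, also called gp130, read 173 and 186 on the EpiLC arrays and 906 and 776 on the PGCLC arrays (log2 difference 2.22 ± 0.10 SE, limma adjusted p = 1.65e-08), and Bcl3, a cofactor of NF-kappaB, read 30.2 and 37.6 on the EpiLC arrays and 252 and 95.5 on the PGCLC arrays. The single fall was that of Pim2, described above, a gene that STAT factors activate in blood cells. The same 8 to 1 split was found on amplified arrays and in each fit without 1 array.

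Several BMP targets rose as well. BMP ligands act through SMAD1 and SMAD5, which switch on the inhibitor of differentiation (Id) genes. Of 14 tested members, 7 rose and 0 fell (1 at an unadjusted p), with a median of 1.29. Id3 read 124 and 157 on the EpiLC arrays and 1179.6 and 1659 on the PGCLC arrays (log2 difference 3.33 ± 0.15 SE, limma adjusted p = 2.16e-08) and Id2 read 71.1 and 94.6 on the EpiLC arrays and 485 and 949 on the PGCLC arrays. Msx2, a homeobox gene that responds to BMP4 in the embryo, read 29.2 and 38 on the EpiLC arrays and 513 and 891 on the PGCLC arrays (log2 difference 4.34 ± 0.30 SE, limma adjusted p = 5.65e-07). The other probe set of Msx2 was at 0.92. With the mean of probe sets 6 BMP targets were higher and the list median was 0.74. Gata2, described above, is the other member with a difference over 4. On amplified arrays 6 members were higher and 0 lower, and without the second PGCLC array 1 member was called lower. Among the WNT targets, 4 of 12 rose and 1 fell, with a median of 0.36. Dkk1, a secreted WNT antagonist, read 20.4 and 20.4 on the EpiLC arrays and 202 and 341 on the PGCLC arrays and was at least 9.35-fold higher, whereas the cyclin gene Ccnd1 read 1036 and 993 on the EpiLC arrays and 118 and 68.8 on the PGCLC arrays (log2 difference -3.49 ± 0.18 SE, limma adjusted p = 5.94e-08). Axin2, a feedback inhibitor of WNT signalling, read 46.5 and 57 on the EpiLC arrays and 217 and 260.4 on the PGCLC arrays, but its other probe set went the opposite way (-1.49), and the mean of both was not called. On amplified arrays 2 WNT targets were higher and 1 lower.

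Targets of FGF and ERK signalling were mixed, with 3 of 14 higher and 3 lower (median 0.15, but -0.22 without the first PGCLC array and -0.10 with the array code as a factor). The ERK phosphatases Dusp5 and Dusp4 rose, from 43.4 and 33.6 to 268 and 296 and from 117 and 119.8 to 869 and 789, as did the early response gene Ier3, from 152 and 154 to 1046 and 658. The growth regulator Myc fell, from 570.1 and 595 to 124 and 52.8 (log2 difference -2.85 ± 0.29 SE, limma adjusted p = 8.97e-06). Without the second PGCLC array 5 targets were higher, and amplified arrays gave 2 higher and 1 lower. In the Nodal list 3 of 15 rose and 1 fell (median -0.37). Lefty2, a secreted Nodal inhibitor, read 357 and 351 on the EpiLC arrays and 2244 and 1841 on the PGCLC arrays (log2 difference 2.52 ± 0.11 SE, limma adjusted p = 1.32e-08), and the single fall was that of Fst. Pcsk6, a protease that processes Nodal, lost its call without the second PGCLC or the first EpiLC array, and Acvr1b, a type I activin receptor, lost it with the mean of its probe sets. The Nodal count ranged from 2 to 5 higher over the fits that left out 1 array, with 5 without the second EpiLC array, and the lower count was 3 without the first PGCLC array and 2 without the second. Amplified arrays gave 1 higher and 2 lower, and 2 and 3 with the block.

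Notch, YAP and retinoic acid genes leaned towards lower values. Of 17 Notch genes 2 rose and 6 fell (median -0.58). Hes6, a factor of neuronal differentiation, read 2306 and 2218 on the EpiLC arrays and 115 and 123 on the PGCLC arrays (log2 difference -4.25 ± 0.10 SE, limma adjusted p = 2.55e-10), and the receptor gene Notch3 read 659.8 and 696 on the EpiLC arrays and 75.9 and 60 on the PGCLC arrays. The ligand gene Dll3 fell from 215 and 218 to 79.9 and 78.6. Hey1, a transcriptional target of Notch, moved the other way from 29.4 and 30.8 to 635 and 903 (log2 difference 4.65 ± 0.66 SE, limma adjusted p = 0.000125). On amplified arrays 2 Notch genes were higher and 2 lower. Of 14 YAP targets and cofactors 2 rose and 6 fell (median -0.87). The DNA-binding partner Tead2 read 834 and 925 on the EpiLC arrays and 117 and 104 on the PGCLC arrays, the scaffold gene Amotl2 970.5 and 1001 on the EpiLC arrays and 112 and 193 on the PGCLC arrays, and the matrix gene Ccn1 467 and 501 on the EpiLC arrays and 120.2 and 231 on the PGCLC arrays. Ajuba, an adaptor that restrains the LATS kinases, fell by 1.39 ± 0.07 SE on the log2 scale. The amplified counts for this list were 2 higher and 4 lower. Of 15 retinoic acid genes 1 rose and 4 fell (median -0.68), and amplified arrays gave 0 higher and 2 lower, or 4 lower with the block. Rarg, a receptor, read 228 and 232 on the EpiLC arrays and 67.7 and 42.5 on the PGCLC arrays, and Crabp2, which carries retinoic acid to its receptor, read 217 and 286 on the EpiLC arrays and 27.1 and 79.3 on the PGCLC arrays. Rbp4 and Dhrs3 were lower too (at least 2.69-fold and at least 1.05-fold), but Dhrs3 lost its call when the floor was raised to 28.1. The single rise of this list was not called without the first EpiLC array.

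Immediate early genes respond to stimuli within minutes. In PGCLCs 2 of 13 were higher and 1 lower (median 0.53). Fos read 30.8 and 24.2 on the EpiLC arrays and 353 and 192 on the PGCLC arrays and Junb read 64.8 and 65 on the EpiLC arrays and 568 and 383 on the PGCLC arrays, while the stress-induced gene Atf3 read 189.9 and 207 on the EpiLC arrays and 19.4 and 17 on the PGCLC arrays, at least 7.06-fold lower (limma adjusted p = 1.58e-08). On amplified arrays the counts were 0 higher and 2 lower, and 2 and 2 with the block, which called both Fos and Junb (limma adjusted p = 0.0479 and 0.00664). Without the second PGCLC array the list had 5 higher and 2 lower, and without the second EpiLC array 2 lower. Of 15 interferon and antigen presentation genes 5 rose and 1 fell (median -0.22). The transcription factor Irf1 read 285 and 294 on the EpiLC arrays and 1368 and 1156 on the PGCLC arrays (log2 difference 2.12 ± 0.09 SE, limma adjusted p = 1.28e-08), Irf9 rose from 53.1 and 61.9 to 162 and 156, and the peptide-loading gene Tapbp rose from 333 and 383 to 1212 and 812. Tap1, a peptide transporter, fell from 69.7 and 74.5 to 30.2 and 12.2, a call that was lost with the mean of its probe sets. Amplified arrays gave 2 higher and 3 lower. Without the first PGCLC array this list had 3 higher and 3 lower, and the lower count was 2 without the second PGCLC or the first EpiLC array.

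Surface molecules differed in both directions within families. Ephrins and their Eph receptors signal in both directions between touching cells. Of 16 tested, 4 rose and 4 fell (median -0.16). Beside Efnb1, the receptor gene Epha4 rose from 7.89 and 6.34 to 135 and 204, at least 5.91-fold (limma adjusted p = 7.6e-08), while Epha1 fell from 130.3 and 187 to 15.9 and 16.8 and the ligand gene Efna5 from 144 and 144 to 13.1 and 31.3. Amplified arrays gave 4 higher and 1 lower, or 3 lower with the block. Gap junction genes split 3 to 3 among 7 tested and did so in each fit without 1 array. Their median of 0.66 was not stable, at 1.33 without the first and -0.0045 without the second EpiLC array and -0.05 on amplified arrays. Gja1, a connexin gene of many embryonic tissues, read 4443 and 4206 on the EpiLC arrays and 338 and 419 on the PGCLC arrays (log2 difference -3.52 ± 0.09 SE, limma adjusted p = 3.87e-10), and Gjb2 fell from 61.8 and 68.5 to 11.3 and 21.4. The connexin genes Gjc1 and Gjb5 rose from 412 and 437 to 2838 and 2531 (log2 difference 2.66 ± 0.07 SE, limma adjusted p = 9.8e-10) and from 21.4 and 28.2 to 574 and 363. On amplified arrays 3 connexin genes were higher and 2 of the list lower. Of 20 integrin and laminin genes 5 rose and 5 fell (median -0.30), with 3 higher and 4 lower on amplified arrays and 3 lower without the second EpiLC array. Itga6, the alpha chain of laminin receptors, read 2077 and 2120.2 on the EpiLC arrays and 472 and 208 on the PGCLC arrays (log2 difference -2.74 ± 0.26 SE, limma adjusted p = 6.18e-06), whereas Itga1 rose from 14.6 and 16 to 206 and 124 beside Itgb3. Itga8 rose at least 1.23-fold but lost its call with the raised floor.

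Epithelial genes fell in part and mesenchymal genes rose in part. Of 22 junction and keratin genes 2 rose and 5 fell (median -0.22). Ocln, a tight junction protein, read 188 and 214 on the EpiLC arrays and 14.2 and 3.38 on the PGCLC arrays, the claudin gene Cldn6 read 853 and 911 on the EpiLC arrays and 125 and 136 on the PGCLC arrays, and Krt18 read 1819.6 and 1808 on the EpiLC arrays and 349 and 388 on the PGCLC arrays (log2 difference -2.30 ± 0.09 SE, limma adjusted p = 6.09e-09). The desmosome gene Dsp read 51.4 and 60.8 on the EpiLC arrays and 1289.7 and 1636 on the PGCLC arrays on its brightest probe set, but its 3 probe sets ranged from -4.63 to 4.70, so its direction is uncertain. Amplified arrays gave 2 higher and 6 lower. Of 13 mesenchymal transition genes 5 rose and 2 fell (median 0.70). Cdh11, a cadherin of mesenchyme, read 1 and 1.67 on the EpiLC arrays and 128 and 150.4 on the PGCLC arrays, and the intermediate filament gene Vim read 1108 and 1099.5 on the EpiLC arrays and 3254 and 2903 on the PGCLC arrays (log2 difference 1.48 ± 0.06 SE, limma adjusted p = 1.1e-08). Zeb1 rose by 1.72, without a call from the mean of its probe sets, and the matrix metalloproteinase gene Mmp2 fell from 273 and 297 to 109 and 89.5. The lower count was 1 without the second PGCLC or the second EpiLC array, and amplified arrays gave 4 higher and 1 lower, or 5 and 3 with the block. Of 19 collagen and matrix genes 5 rose and 0 fell (1 at an unadjusted p; median 0.76), 8 rose with centred arrays, and amplified arrays gave 4 and 0. Col3a1 read 10 and 13.4 on the EpiLC arrays and 235 and 374 on the PGCLC arrays and was at least 10.5-fold higher, Col1a2 rose from 48.7 and 30.1 to 139.6 and 214 and Nid1 from 148 and 165 to 578 and 327. The call of Nid1 was lost with all its probe sets averaged and that of Col5a2 (at least 2.24-fold) without the second PGCLC or either EpiLC array. Of 20 actin cytoskeleton genes 1 rose and 4 fell (median -0.19). The smooth muscle gene Cnn1 read 150.2 and 167 on the EpiLC arrays and 25.4 and 1 on the PGCLC arrays and the tropomyosin gene Tpm2 read 845 and 879.9 on the EpiLC arrays and 186 and 154 on the PGCLC arrays (log2 difference -2.35 ± 0.10 SE, limma adjusted p = 1.58e-08). Without the second PGCLC array 2 actin genes were higher and 2 lower, with 2 higher also without the second EpiLC array, and amplified arrays gave 0 and 2, or 1 and 3 with the block. Acta1 (at least 1.65-fold lower) and Actg2 lost their calls with the raised floor, and Acta1 also without the second PGCLC or second EpiLC array.

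Many genes of the ATF4 stress response and of serine synthesis were lower in PGCLCs. ATF4 is the transcription factor of the integrated stress response, which cells raise on amino acid shortage, and it drives amino acid transporters and the serine pathway. Of 16 tested genes of this response, Atf4 included, 0 rose (also 0 at an unadjusted p) and 8 fell (15 at an unadjusted p), with a median of -0.99. Nupr1, a stress-induced chromatin protein, read 1953 and 2036 on the EpiLC arrays and 189 and 73.3 on the PGCLC arrays (log2 difference -4.08 ± 0.31 SE, limma adjusted p = 9.6e-07). Chac1, which degrades glutathione, read 1369 and 1314 on the EpiLC arrays and 182 and 125 on the PGCLC arrays (log2 difference -3.15 ± 0.15 SE, limma adjusted p = 2.92e-08). Both genes were lower on each PGCLC array than on either EpiLC array, as were 40.6% of all tested genes. The arginine and lysine transporter Slc7a3 read 2692 and 2473 on the EpiLC arrays and 299 and 115 on the PGCLC arrays, and the pseudokinase Trib3 read 1547 and 1444 on the EpiLC arrays and 282 and 158 on the PGCLC arrays. The cystine transporter Slc7a11 and Atf4 itself, singled out after their values were seen, fell from 54.1 and 68.8 to 18.4 and 17.3 and from 4827 and 4585 to 1453 and 1479. Amplified arrays called 0 higher and 5 of 15 lower, and 7 to 9 were lower in the fits that left out 1 array. The upstream sequences of 3 of these genes are shown because they hold the letters TGATGCAA on either strand (in capitals), a form of the element that ATF4 binds with C/EBP proteins. They are the 250 bases before the annotated start, 5′ to 3′ on the strand of the gene, from RefSeq on GRCm38.p6, at chr2:119350992-119351241 on the plus strand for Chac1, chr7:126625471-126625720 on the minus strand for Nupr1 and chr3:50443614-50443863 on the minus strand for Slc7a11.
Chac1: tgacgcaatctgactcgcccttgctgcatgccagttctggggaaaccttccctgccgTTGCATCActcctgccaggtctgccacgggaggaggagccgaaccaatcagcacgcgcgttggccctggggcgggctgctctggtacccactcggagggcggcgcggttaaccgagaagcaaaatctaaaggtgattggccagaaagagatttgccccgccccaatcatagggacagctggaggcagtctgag
Nupr1: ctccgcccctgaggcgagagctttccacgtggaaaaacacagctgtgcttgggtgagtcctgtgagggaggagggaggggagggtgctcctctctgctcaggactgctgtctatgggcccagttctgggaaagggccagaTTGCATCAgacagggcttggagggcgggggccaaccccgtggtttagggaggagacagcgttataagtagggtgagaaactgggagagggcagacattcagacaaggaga
Slc7a11: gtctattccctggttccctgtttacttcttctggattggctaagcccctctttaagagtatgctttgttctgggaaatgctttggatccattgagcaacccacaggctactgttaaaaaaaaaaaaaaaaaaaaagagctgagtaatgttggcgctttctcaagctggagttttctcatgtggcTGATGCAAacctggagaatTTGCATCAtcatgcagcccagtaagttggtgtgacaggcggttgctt
The match begins 193 bases before the start in Chac1, 110 in Nupr1, and 66 and 47 in Slc7a11, and no match overlaps another. Windows were at hand for 14 tested members of the list, and these 3 held a match (21.4%). Of all 27025 genes with windows 0.918% held one, and of all 32851 windows 0.791%. The windows of Trib3 and Atf4 held none.

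Of 12 serine and one-carbon genes 1 rose and 6 fell (median -0.88). Phgdh, the first enzyme of serine synthesis, read 4677 and 4514 on the EpiLC arrays and 777 and 660.4 on the PGCLC arrays (log2 difference -2.68 ± 0.08 SE, limma adjusted p = 9.8e-10). Psph, the last enzyme of that pathway, read 2541 and 2451 on the EpiLC arrays and 652 and 558 on the PGCLC arrays (log2 difference -2.05 ± 0.08 SE, limma adjusted p = 8.46e-09). The mitochondrial folate enzymes Mthfd2 and Mthfd1l fell from 3335 and 3109 to 972 and 797 and from 901 and 936 to 377 and 251. All 4 enzymes act on the route from a glycolytic intermediate to formate. Amplified arrays gave 0 higher and 5 lower of 11.

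**Figure D3:**
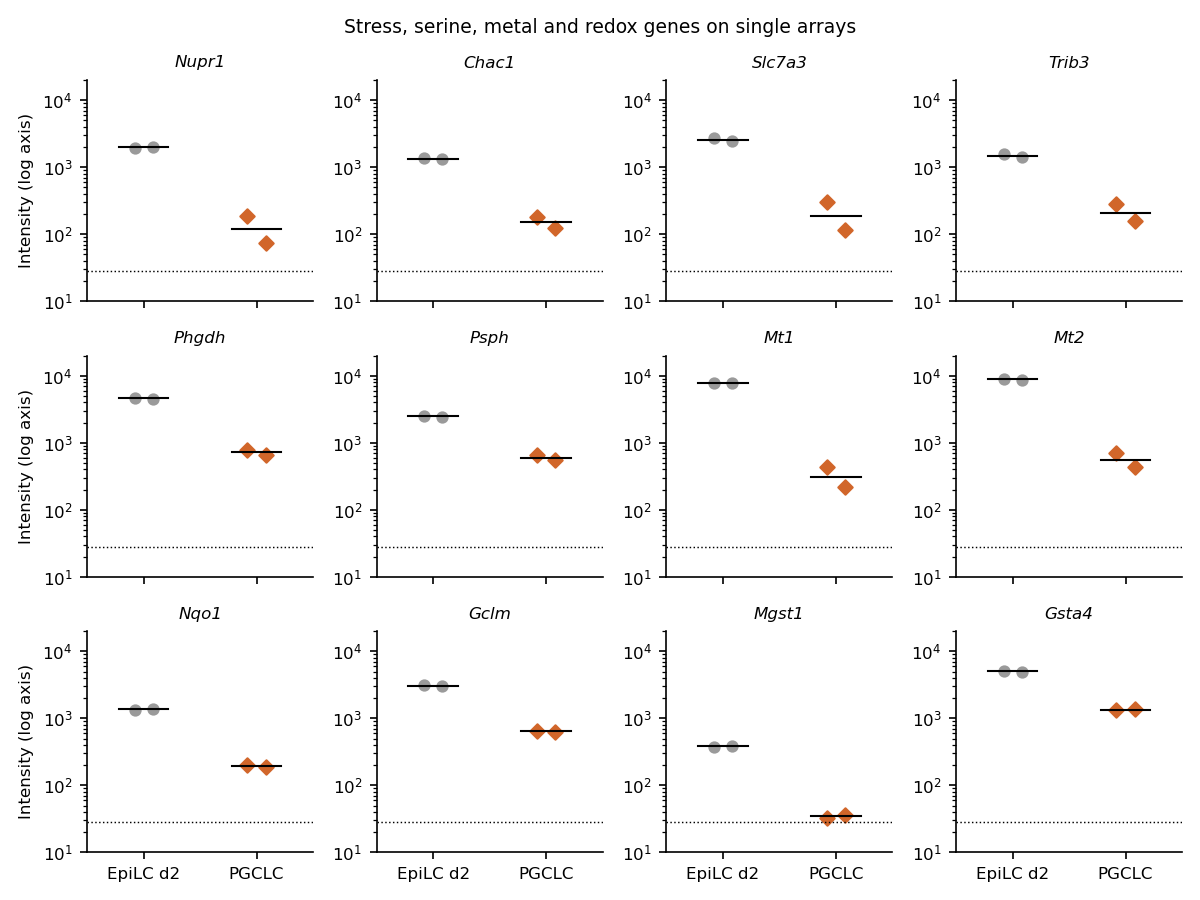
Intensity on a log axis (deposited linear units) of 12 genes of the ATF4, serine, metal and redox lists on each array of day 2 EpiLCs (circles) and PGCLCs (diamonds). Short black lines are means of the log2 values and the dotted line is the filter level of 28.1. In every panel both PGCLC arrays lie below both EpiLC arrays, with Mt1 falling from 7850.1 and 7799 to 435 and 215. Over all tested genes this separation held for 40.6%.

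Metallothioneins, small proteins that bind zinc and copper, fell steeply from high levels in EpiLCs. Mt1 read 7850.1 and 7799 on the EpiLC arrays and 435 and 215 on the PGCLC arrays (log2 difference -4.68 ± 0.23 SE, limma adjusted p = 3.64e-08), and Mt2 read 8817 and 8787 on the EpiLC arrays and 714 and 438 on the PGCLC arrays (log2 difference -3.98 ± 0.16 SE, limma adjusted p = 9.82e-09). For both genes the second PGCLC array was below the first, and both lay far under the EpiLC arrays. Mt3 and the copper-dependent iron oxidase gene Heph fell from 66.1 and 76.3 to 5.94 and 1 and from 125 and 139 to 11.1 and 10.8. Of 12 metal genes in all 2 rose and 5 fell (median -0.33). Without the first PGCLC or the second EpiLC array 1 rose, and amplified arrays gave 1 higher and 3 lower, where Mt2 was called with the block (limma adjusted p = 0.00264) but not without it (-2.54). The sequence upstream of Mt2 is shown for its matches to TGCNCNC on either strand (in capitals). This string is looser than the core of the metal response element, in which the first N is A or G. Not every match is therefore such a core. The sequence spans the 250 bases before the start at chr8:94172368-94172617, plus strand, RefSeq on GRCm38.p6.
Mt2: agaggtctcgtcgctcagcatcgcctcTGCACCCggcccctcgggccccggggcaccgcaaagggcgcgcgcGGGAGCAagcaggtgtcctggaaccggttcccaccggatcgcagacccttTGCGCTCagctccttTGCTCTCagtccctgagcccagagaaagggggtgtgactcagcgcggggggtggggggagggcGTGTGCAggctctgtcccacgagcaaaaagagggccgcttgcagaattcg
It held 5 matches, none of which overlap, beginning 223, 178, 128, 113 and 50 bases before the start. At least 5 matches were found in 0.344% of all windows, and at least 1, as in the window of Mt1, in 44.4% of windows and in those of 47.2% of all genes.

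Redox genes were lower in part. Of 24 tested glutathione and redox genes 0 rose (5 at an unadjusted p) and 6 fell (median -0.20), with 0 and 6 on amplified arrays as well. Without the second PGCLC array 1 was higher. Nqo1, a quinone reductase, read 1355 and 1366 on the EpiLC arrays and 199 and 185 on the PGCLC arrays (log2 difference -2.83 ± 0.06 SE, limma adjusted p = 1.21e-10). Gclm, a subunit of the enzyme that starts glutathione synthesis, read 3198 and 2992 on the EpiLC arrays and 654 and 625 on the PGCLC arrays (log2 difference -2.28 ± 0.07 SE, limma adjusted p = 1.41e-09). The glutathione transferases Gsta4 and Mgst1 fell from 5061 and 4959.6 to 1312 and 1400.4 and from 375 and 392 to 32.8 and 36.1. The replicates of each of these 4 genes were close together. TGACNNNGC, the core of the antioxidant response element to which NRF2 binds, was present on either strand in the upstream windows of 7 of 20 list genes (35%), in those of 11.5% of all genes and in 10.2% of all windows. Gclm and Mgst1 had a match each, and Nqo1 had none.

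In other cells of the study, measured on the same kind of array, these genes had the following mean intensities, which are given as a description. Chac1 was at 212 in ESCs and 189 in epiblast stem cells (EpiSCs), against 1341 in day 2 EpiLCs. Mt1 was at 11875 in ESCs and 1582 in EpiSCs, and Nqo1 at 2514 and 313. The level of these 3 genes in PGCLCs (151, 306 and 192) was below both. On amplified arrays Mt1 averaged 718 in PGCLCs and 478 in primordial germ cells of embryonic day 9.5, and Chac1 averaged 159 and 26.4.

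Lipid synthesis was lower in part. Of 16 cholesterol synthesis genes 0 rose (1 at an unadjusted p) and 5 fell (median -0.78), with 0 and 4 on amplified arrays. Pmvk, a kinase of the mevalonate pathway, read 677 and 699 on the EpiLC arrays and 232 and 154 on the PGCLC arrays (log2 difference -1.86 ± 0.14 SE, limma adjusted p = 1.18e-06), and the sterol demethylase Cyp51 read 1413 and 1334 on the EpiLC arrays and 677 and 556 on the PGCLC arrays. The count fell to 2 with centred arrays and without the second PGCLC array, and several differences lie near 1 in size. Msmo1 (-1.14) and Nsdhl (-1.10) were lost in both fits, and Msmo1 and Cyp51 when probe sets were averaged. Of 18 fatty acid genes 1 rose and 4 fell (median -0.11), with 1 and 5 on amplified arrays (3 and 5 with the block), and 2 and 1 without the second PGCLC array. The desaturase Scd1 read 2066 and 2023 on the EpiLC arrays and 813 and 603 on the PGCLC arrays (log2 difference -1.55 ± 0.11 SE, limma adjusted p = 8.1e-07), and Fads2 and Acly (-1.23 and -1.18) lost their calls without that array. Acadm, a dehydrogenase of fatty acid oxidation, rose from 1082 and 1012 to 2614 and 2645 (log2 difference 1.33 ± 0.06 SE, limma adjusted p = 1.82e-08).

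Few genes of the respiratory chain and the tricarboxylic acid cycle were called. Hypoxia targets had more calls, and the number of glycolysis calls depended on the arrays. Over all tested genes 20.6% were called in either direction. Of 18 glycolysis and lactate genes 2 rose and 1 fell (median -0.46). Pfkp, the platelet form of phosphofructokinase, read 422 and 440.2 on the EpiLC arrays and 3361 and 1643 on the PGCLC arrays, and the hexokinase gene Hk1 read 364 and 341 on the EpiLC arrays and 1344 and 1805 on the PGCLC arrays (log2 difference 2.15 ± 0.11 SE, limma adjusted p = 6.5e-08). The lactate exporter Slc16a3 fell from 647 and 726 to 300.4 and 99.8, and its log2 difference was -1.99, against -7.76 on amplified arrays. Lower calls in this list depended on the arrays: 6 without the first PGCLC array, 2 without the second and 7 on amplified arrays, beside 2 higher. The median of the glycolysis genes was 0.486 higher on the log2 scale on the first PGCLC array than on the second, against 0.003 between the EpiLC arrays. Of 15 hypoxia targets 3 rose and 2 fell (median -0.02), and amplified arrays gave 1 and 0. Car12, a carbonic anhydrase, rose from 51.5 and 60.2 to 182 and 264, though 1 of its 3 probe sets was at -0.0095, and the demethylase gene Kdm3a rose from 731 and 733 to 1915 and 1665. Ankrd37 (1.48, and -1.06 on amplified arrays) lost its call without the first PGCLC array and Car9 (at least 1.41-fold lower) with the raised floor. Of 22 respiratory chain genes 1 rose and 0 fell (7 at an unadjusted p; median 0.13), and amplified arrays gave 0 and 0, or 1 and 0 with the block. Of 17 genes of the tricarboxylic acid cycle 1 rose and 1 fell (median -0.06), with 0 lower without the second PGCLC or the first EpiLC array and 1 and 0 on amplified arrays (2 and 0 with the block).

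Lysosomal genes leaned higher. Of 20 tested 5 rose and 0 fell (3 at an unadjusted p; median 0.60), 6 and 0 on amplified arrays and 8 and 0 with centred arrays. Hexa, a hexosaminidase subunit, read 814 and 741 on the EpiLC arrays and 2318 and 2479 on the PGCLC arrays (log2 difference 1.63 ± 0.06 SE, limma adjusted p = 9.3e-09). Grn, which encodes progranulin, read 1206 and 1140 on the EpiLC arrays and 3462 and 3617 on the PGCLC arrays (log2 difference 1.59 ± 0.09 SE, limma adjusted p = 1.48e-07), and the cholesterol exporter Npc1 read 212 and 227 on the EpiLC arrays and 552 and 595 on the PGCLC arrays. Ctsa, a protective protease, rose from 357 and 414 to 1322 and 1461, but its other probe set was at -0.26 and the call was lost with the mean of both. Without the first PGCLC array 1 member was called lower. TCACGTGA, the palindrome at the centre of the element of lysosomal genes, was present in the upstream windows of 4 of 17 list genes (23.5%), Ctsa among them, in those of 0.907% of all genes and in 0.785% of all windows.

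Few genes of ribosome biogenesis, DNA replication and mitosis were called. Of 20 ribosome biogenesis genes 0 were called higher and 0 lower by limma (4 and 8 at an unadjusted p; median -0.10, range -0.71 to 0.57), and amplified arrays gave 0 and 2. Of 24 genes of DNA replication and the G1 to S transition 2 rose and 2 fell (median 0.12), with 1 and 2 on amplified arrays (2 and 2 with the block). Gins2, part of the replicative helicase, read 1238 and 1195 on the EpiLC arrays and 297 and 252 on the PGCLC arrays (log2 difference -2.15 ± 0.09 SE, limma adjusted p = 9.61e-09), and Uhrf1, which brings DNMT1 to replicating DNA, read 2000.3 and 2136 on the EpiLC arrays and 609 and 464 on the PGCLC arrays (log2 difference -1.96 ± 0.11 SE, limma adjusted p = 1.12e-07). Ung rose by 1.17 on the log2 scale and E2f2 at least 3.49-fold. Of 23 mitosis genes 2 rose and 1 fell (median 0.19), and amplified arrays gave 1 and 0, or 2 and 0 with the block. Their differences were near 1, as for Plk1 (-1.14), Nek2 (1.12) and Cenpf (1.01). Plk1 lost its call with centred arrays and Nek2 with the mean of its probe sets. Cenpf lost its call with that mean too, and without the first PGCLC or the first EpiLC array. D-type cyclins moved in opposite directions: Ccnd1 fell, as given above, and Ccnd3 rose from 664 and 662 to 3000.1 and 3357 (log2 difference 2.26 ± 0.07 SE, limma adjusted p = 1.9e-09). In the list of D cyclins and inhibitors of cyclin-dependent kinases 1 of 15 rose and 4 fell (median -0.17), with 2 and 2 on amplified arrays. The inhibitor genes Cdkn2b and Cdkn2a, which neighbour each other, fell from 131 and 141 to 19.6 and 21.9 and from 300.2 and 322 to 138 and 71.9.

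Of 15 p53 targets 1 rose and 4 fell (median -0.63). Amplified arrays gave 1 and 1 with a median of 0.02, and 2 and 1 with the block. Pmaip1, which encodes the death-promoting protein NOXA, read 4366 and 4233 on the EpiLC arrays and 472 and 200.0 on the PGCLC arrays (log2 difference -3.81 ± 0.27 SE, limma adjusted p = 6.96e-07). Bbc3, which encodes PUMA, fell from 339.8 and 384 to 157 and 122 and Zmat3, an RNA-binding target of p53, from 1521 and 1504 to 554 and 526. Perp, a membrane protein, rose from 105 and 128 to 378 and 327. Of 16 genes of the BCL2 family and apoptosis 1 rose and 3 fell (median -0.27), with 5 lower without the second PGCLC array. Amplified arrays gave 1 and 1 with a median of 0.22, and 1 and 3 with the block. Bok and Bak1, both effectors of the outer mitochondrial membrane, fell from 499 and 558 to 108 and 41.1 and from 148 and 205 to 45.8 and 46.5, and Hrk from 102 and 114 to 15.3 and 35. The other probe set of Hrk was at -0.15. Casp8, the initiator caspase of death receptors, rose from 13.3 and 17.8 to 65.8 and 77.7. Of 20 chaperones 3 rose and 2 fell (median 0.12), with 0 and 1 on amplified arrays (0 and 2 with the block). Hspb8 fell from 348 and 355 to 52.9 and 27.3, and Dnajb1 and Bag3 rose by 1.33 and 1.31. Hspa1b rested on 1 library: it read 1135 and 152 on the PGCLC arrays and 116 and 127 on the EpiLC arrays, the call was lost without the first PGCLC array and without either EpiLC array, and the amplified difference was -0.65.

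Among chromatin genes, the de novo DNA methyltransferases fell. Dnmt3b read 9866 and 9442 on the EpiLC arrays and 237 and 105 on the PGCLC arrays. Dnmt3a read 3124 and 2918 on the EpiLC arrays and 118 and 83.6 on the PGCLC arrays, and the cofactor gene Dnmt3l read 1142 and 1198 on the EpiLC arrays and 129.8 and 16.6 on the PGCLC arrays. These losses, with that of Uhrf1, make up 4 of the 5 lower calls among 13 tested genes, against 1 higher (median -0.05), and amplified arrays gave 2 and 4. Macro-histone genes moved in opposite directions. Macroh2a1 read 649 and 608 on the EpiLC arrays and 4573 and 4675 on the PGCLC arrays (log2 difference 2.88 ± 0.05 SE, limma adjusted p = 6.39e-11), while Macroh2a2 read 178 and 216 on the EpiLC arrays and 66.8 and 41.1 on the PGCLC arrays (log2 difference -1.91 ± 0.21 SE, limma adjusted p = 1.62e-05). Of 12 linker and variant histone genes 2 rose and 1 fell (median 0.14), and amplified arrays gave 2 and 1. The other rise was that of H1f2 (2.26), whose 3 probe sets ranged from 0.02 to 2.26. Of 21 Polycomb genes 1 rose and 2 fell (median 0.09). Pcgf5, a subunit of a variant form of Polycomb complex 1, rose from 381 and 392 to 1892 and 2150.3 (log2 difference 2.38 ± 0.08 SE, limma adjusted p = 4.09e-09). Cbx6 (-1.26) was lost without the first PGCLC array, where 2 members were higher, and Cbx7 (-1.08) with centred arrays, and amplified arrays gave 2 and 0, or 3 and 1 with the block. Of 15 genes of H3K9 methylation 2 rose and 3 fell (median -0.07), with 1 and 0 on amplified arrays. The demethylase genes Kdm3b and Kdm4c moved apart (1.44 and -1.26), and Cbx3, a heterochromatin protein gene, fell from 192 and 216 to 38.4 and 39 but was not called on amplified arrays (0.34).

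Of 21 tested imprinted genes, which are expressed from 1 parental copy, 9 rose and 3 fell (median 0.05), and with the array code as a factor 5 were lower. Beside Plagl1, the growth factor gene Igf2 read 40.2 and 47 on the EpiLC arrays and 409 and 905 on the PGCLC arrays (log2 difference 3.81 ± 0.28 SE, limma adjusted p = 8.33e-07), and Dlk1, a Notch-like ligand gene, read 24.1 and 21.5 on the EpiLC arrays and 119 and 168 on the PGCLC arrays. Grb10, an inhibitor of insulin and IGF signalling, read 1902 and 1827 on the EpiLC arrays and 83.6 and 139.7 on the PGCLC arrays (log2 difference -4.11 ± 0.17 SE, limma adjusted p = 1.28e-08). On amplified arrays 4 of 18 were higher and 3 lower.

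Markers of other cell types were read as whole lists. In the neural list 0 of 13 rose (0 at an unadjusted p) and 8 fell (median -1.88), and its summed intensity was 3594 to 3680 on EpiLC arrays and 661 to 751 on PGCLC arrays. Zic5 read 978 and 989 on the EpiLC arrays and 66.6 and 19.4 on the PGCLC arrays, Sox3 473 and 473 on the EpiLC arrays and 37.6 and 45.8 on the PGCLC arrays and Sox1 60 and 80.2 on the EpiLC arrays and 3.6 and 4.28 on the PGCLC arrays; with the raised floor 6 fell with a median of -0.29, and amplified arrays gave 0 and 5, or 0 and 8 with the block. Zic and Sox genes of this list are also expressed in epiblast cells. Of 13 endothelial and blood genes 4 rose and 0 fell (3 at an unadjusted p; median -0.14), the sum going from 513 to 519 in EpiLCs to 1257 to 1461 in PGCLCs. The 4 were Pecam1, which read 47.3 and 57.9 on the EpiLC arrays and 704 and 607 on the PGCLC arrays (log2 difference 3.64 ± 0.22 SE, limma adjusted p = 1.9e-07) and which germ cells also express, Emcn (7.01 and 6.62 on the EpiLC arrays and 64.1 and 53 on the PGCLC arrays), Esam (42 and 41.7 on the EpiLC arrays and 245 and 112 on the PGCLC arrays) and Kdr. Defining markers of each type are named here whatever their values, outside the rule for named genes. The endothelial cadherin gene Cdh5 read 32.9 and 15.4 on the EpiLC arrays and 15.5 and 19.9 on the PGCLC arrays, and Tal1 and Gata1 of blood read 28.6 and 40.8 and 15.9 and 39 in PGCLCs. Amplified arrays gave 5 and 0, and without the second PGCLC array 1 of this list was lower.

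Of 16 primitive streak and mesoderm genes 4 rose and 0 fell (2 at an unadjusted p; median -0.0012), as on amplified arrays (4 and 1 with the block), with sums of 439 to 488 in EpiLCs and 766 to 859 in PGCLCs. Lhx1 read 2.99 and 3.26 on the EpiLC arrays and 154 and 109 on the PGCLC arrays, Evx1 12.5 and 9.22 on the EpiLC arrays and 74.1 and 65.9 on the PGCLC arrays and Pdgfra 6.02 and 5.61 on the EpiLC arrays and 76.7 and 58.7 on the PGCLC arrays, whereas Gsc stayed under the floor on all 4 arrays. The mean of its probe sets gave no call for Pdgfra, and 1 to 2 members were lower without either PGCLC or without the second EpiLC array. Of 14 fibroblast genes 6 rose and 2 fell (median 0.19), with sums of 2507 to 2607 and 3208 to 3398, and amplified arrays gave 2 and 2. Postn read 1 and 1 on the EpiLC arrays and 90.5 and 51.1 on the PGCLC arrays, but Thy1 read 115 and 133 on the EpiLC arrays and 3.97 and 4.8 on the PGCLC arrays and the collagen gene Col1a1 65.3 and 65.8 on the EpiLC arrays and 53.4 and 79.3 on the PGCLC arrays. Lum rose at least 1.14-fold with 14.1 and 73.2 on the PGCLC arrays and lost its call with the raised floor; 1 member was lower without the first PGCLC or either EpiLC array. Of 8 trophoblast genes 2 rose and 0 fell (2 at an unadjusted p; median 0.29), with sums of 611 to 624 and 850 to 1550, the spread being that of Cdx2. In this list 1 was lower without either PGCLC array or without the second EpiLC array, and amplified arrays gave 1 and 0, or 2 and 1 with the block. Of 14 endoderm genes 2 rose and 1 fell (median 0), with sums of 635 to 685 and 673 to 709. Cubn rose from 17.5 and 28.8 to 135 and 105, Amn (1.29) lost its call in each fit without 1 array, and Cer1 and Foxa1 were under the floor on all 4 arrays; amplified arrays gave 0 and 0. Of 13 Hox genes 0 rose (2 at an unadjusted p) and 1 fell (median 0.12), with 0 lower without the first PGCLC array and 0 and 1 on amplified arrays. Whether other cells contributed to these values was not tested.

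**Figure D4:**
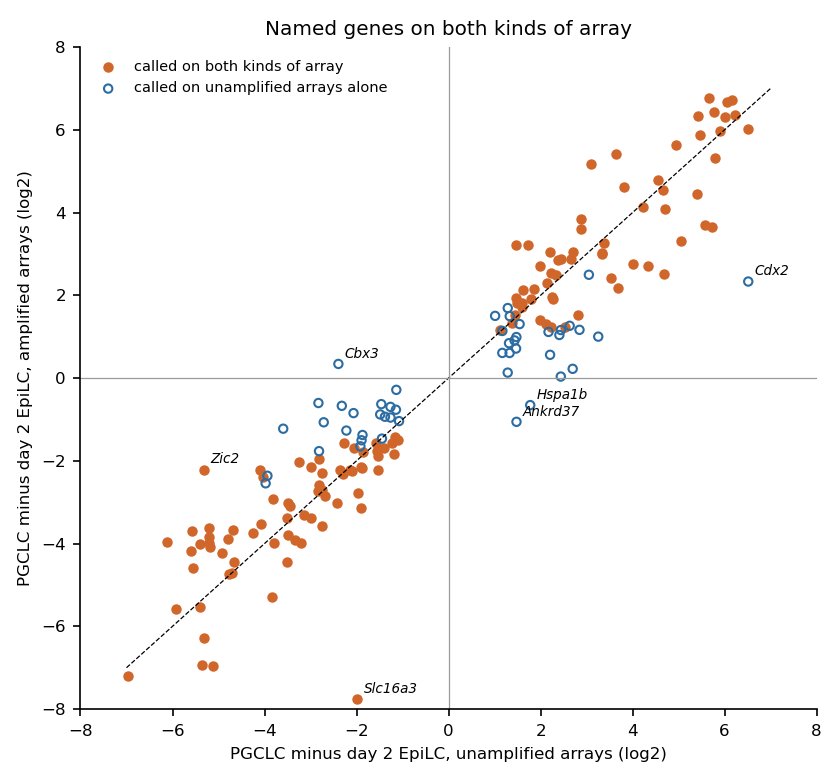
Log2 difference between PGCLCs and day 2 EpiLCs of the named genes on unamplified arrays (x axis) and amplified arrays (y axis). Filled points were called on both kinds of array and open points on unamplified arrays alone (fit without the replicate block), the dashed line marks equal differences, and labels mark genes that differed by over 3 or changed sign, such as Slc16a3 at -1.99 and -7.76.

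The genes were also read by chromosome, a division chosen after the data had been seen. For genes with a mean intensity of at least 100, each array's median log2 deviation per chromosome was taken relative to that of all genes. On chromosome 11, with 754 such genes, it was 0.28 and 0.12 on the PGCLC arrays and -0.08 to -0.01 on the other 10 unamplified arrays. When the gene order was cut into 4 equal blocks, it was above 0 on both PGCLC arrays in each block, at 0.073 to 0.313. On the PGCLC arrays of the amplified set it was -0.05 and -0.0033. There it was chromosome 16, with 303 such genes, that stood at 0.24 on both PGCLC arrays, against -0.13 to 0.12 on the other 10. Shifts also occurred on arrays of other groups. Chromosome 8 stood at 0.26 and 0.04 on the amplified EpiLC arrays, and its median amplified difference was -0.20. On the unamplified EpiSC arrays chromosome 16 stood at -0.18 and -0.17. Of 1210 tested genes of chromosome 11, 11.6% were higher and 8.51% lower, against 5.63% and 6.21% on amplified arrays. Over all tested genes the shares were 8.78% and 11.9%, and on amplified arrays 6.47% and 6.25%. On the X chromosome the shift was -0.11 and -0.19 on unamplified PGCLC arrays, against -0.11 to 0.21 on the other 10, and 93 of 486 genes were lower, against 10.6% on amplified arrays, where the shift was -0.14 and -0.08 on the PGCLC arrays and -0.07 to 0.30 on the other 10. Of the called genes named above, Itgb3, Pdlim4, Axin2, Socs3, Irf1, Gjc1, Slc16a3, Acly, Grn, Grb10, Lhx1 and Pecam1 lie on chromosome 11, and their differences were larger than this shift. Without the genes of chromosome 11 the comparison had 1171 higher and 1668 lower calls.

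**Figure D5:**
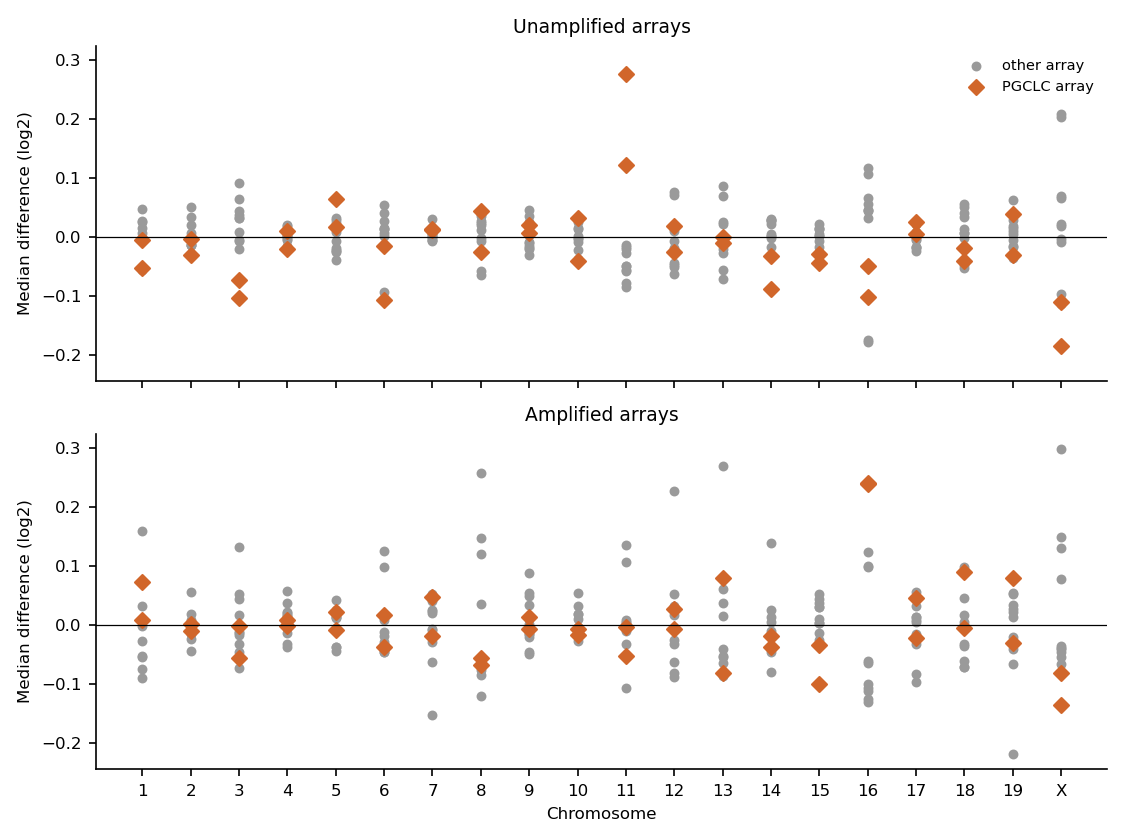
Median log2 deviation of genes of each chromosome from the mean of the set, relative to all genes of the array, on unamplified (top) and amplified arrays (bottom). Diamonds are PGCLC arrays and circles the other arrays; on chromosome 11 both unamplified PGCLC arrays (0.28 and 0.12) lie above the other 10, and the amplified ones do not, whereas on chromosome 16 both amplified PGCLC arrays (0.24) lie above the others.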

How the data were processed

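Per the labels' protocols, RNA was extracted with RNeasy and labelled with biotin by the Affymetrix one-cycle procedure; the amplified set started from 5 ng with 22 PCR cycles. The authors deposited linear intensities for 45101 probe sets on 24 arrays in 12 groups. How these intensities were normalized was, like the software, not given in the sources used here. Groups were taken from the labels. The platform annotation gave 1 symbol to 34958 probe sets, several to 932 and none to 9211, and the brightest probe set by mean log2 value stood for each gene.

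Values were floored at 4.2, the 10th percentile, and genes above the 40th percentile (28.1, or 24.0 for amplified arrays) on at least 2 of 12 arrays were fitted on the log2 scale with limma 3.58.1 in R 4.3.3 (lmFit, eBayes with an intensity trend, 6 residual degrees of freedom). All 12 arrays of a set shared 1 estimate of spread, and p-values were adjusted over all tested genes by the Benjamini-Hochberg method. On simulated data with 14934 genes the fit recovered 79.1% of log2 changes of 1.5, 92.5% of 2 and 97% of 3, with 3 false calls. The simulated noise was independent and normal, with 1 spread per gene on all arrays and no floor or array code effect. These values check the fit and do not give the error rate of this comparison.

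Members and lists were chosen with earlier results of these data known. Named genes were the 15 largest called increases and decreases with no overlap between arrays, outside germ cell and pluripotency markers and provisional names, up to 4 called genes with the largest difference from each list with at least 3 called, and 8 genes for the label check. Promoter windows were RefSeq sequences of GRCm38.p6. Replicate numbers did not pair the unamplified arrays: residuals of same-numbered arrays correlated above 0.1 in 3 of 15 group pairs (median 0.0545, -0.0995 for this comparison). On amplified arrays, where a number also marks 1 array code, 15 of 15 pairs did (median 0.371). Alternatives were scaling, floor, filter, probe set choice, variance trend, array code or replicate block, the 4 arrays alone and leaving out each array.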

Additional observations from a re-analysis of the deposited data

How the results depend on the processing

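The count of 3082 calls on unamplified arrays stayed within 1.5 times under every alternative run: 2915 with the 4 arrays alone, 3069 with the array code as a factor, 3094 with centred arrays, 3012 after quantile normalization, 2487 with the floor at 28.1, 3278 without a filter, 2811 with the mean of probe sets, 3041 without the variance trend and 2948 to 3366 without 1 array. With the replicate number as a block it was 3100 (1314 higher, 1786 lower); the numbers do not pair these arrays, so this value has no standing as a paired test. After the data had been seen, a fit without both EpiSC arrays was added and gave 3062. On amplified arrays, where the numbers do pair the arrays, the block raised the count from 1985 to 2646. Leaving out 1 amplified array gave 1013 to 1332 calls, 515 to 705 of them higher and 498 to 627 lower, with the lowest count without the second PGCLC array; fewer arrays entered these fits. Of 184 named genes that were called, 156 were called under every alternative with a test and none changed sign. The other 28 lost their call most often with the mean of probe sets, where 14 did, and without the second PGCLC array, where 8 did; the cause was not tested. Nodal genes had 3 lower with the array code as a factor, glycolysis genes 4 lower, and cholesterol genes 3 lower with the mean of probe sets, which also left 0 mitosis genes higher. With the floor at 28.1 the list median was -0.23 for retinoic acid, 0.16 for immediate early, -0.17 for integrin, 0.19 for gap junction and 0.39 for lysosomal genes. Signal near the floor gives lower bounds only, and 2 arrays per group limit the precision.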

Other observations

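Several gene families, taken by gene symbol and partly overlapping the lists above, were read after their values had been seen. They are given as counts without a test of the family. Amplified counts of the families come from the fit without the replicate block, and none with it are given. Over all tested genes 8.78% were higher and 11.9% lower. Fibroblast growth factor genes were lower where they were called. Of 17 tested 0 rose (0 at an unadjusted limma p under 0.05) and 8 fell (median -0.88), with 0 and 6 on amplified arrays. Among the 8, Fgf6, Fgf21, Fgf11 and Fgf20 were dim in EpiLCs, and lower by at least 1.19-fold (Fgf6) to at least 1.98-fold (Fgf20). Fgf21 was also called on amplified arrays, whereas Fgf6, Fgf11 and Fgf20 were not. Fgf4, a growth factor of the early epiblast, read 1230 and 1282 on the EpiLC arrays and 50.3 and 18.6 on the PGCLC arrays, and Fgf13, which acts inside cells, read 385 and 387 on the EpiLC arrays and 26.6 and 26.9 on the PGCLC arrays. Both PGCLC arrays of each gene lay under both EpiLC arrays, as for 40.6% of all tested genes. BMP and GDF genes had 3 of 15 higher and 0 lower (1 at an unadjusted p; median -0.19): the ligand gene Bmp4 rose from 34.4 and 35.2 to 294 and 113 (log2 difference 2.39 ± 0.35 SE, limma adjusted p = 0.000159), and Bmp7 from 30.9 and 39.1 to 112 and 119, though Bmp7 was not called on amplified arrays (0.30). WNT genes had 0 of 15 higher (1 at an unadjusted p) and 1 lower.

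Genes of the insulin-like growth factor system had 7 of 14 higher and 3 lower (median 0.56), with 4 and 2 on amplified arrays. The lower members include Igf2bp3, which was taken in by its symbol and encodes an RNA-binding protein. Beside Igf2, its clearance receptor Igf2r rose from 306 and 314 to 906 and 1044, while the signalling receptor Igf1r fell from 114 and 121 to 44.5 and 36.4 (log2 difference -1.55 ± 0.13 SE, limma adjusted p = 2.26e-06). The binding proteins moved apart: Igfbp7 rose from 34.6 and 38.3 to 266 and 227 and Igfbp2 fell from 4602 and 4592 to 1048 and 531 (log2 difference -2.62 ± 0.22 SE, limma adjusted p = 2.05e-06). Of 8 annexins, proteins that bind membranes in the presence of calcium, 3 rose and 1 fell: Anxa2 rose from 119 and 125 to 755 and 641 and Anxa4 fell from 452 and 493 to 57.1 and 19.6. Of 12 regulators of G protein signalling 2 rose and 5 fell, with Rgs5 at least 7.92-fold higher and Rgs2 at least 6.87-fold lower. Of 13 tubulin genes 0 rose (3 at an unadjusted p) and 5 fell (median -0.67), with 1 lower on amplified arrays. The neuronal form Tubb3 fell from 292 and 290.1 to 94.9 and 62.9. On amplified arrays Tubb2a, Tubb2b and Tubb3 had log2 differences of -3.85, -1.74 and -2.71 but were not called. Of 22 large and 18 small subunit ribosomal protein genes limma called 0 on either kind of array, while 3 higher and 3 lower differences of the former on unamplified arrays and 5 lower ones of the latter had an unadjusted p under 0.05.

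The PGCLC replicates differed from each other in several lists, and their values are given without explanation. On the log2 scale the first PGCLC array exceeded the second by a median of 0.578 for interferon genes, 0.477 for metal genes, 0.392 for genes of DNA methylation and 0.389 for hypoxia targets, and for fibroblast genes the median gap was -0.531. Between the EpiLC arrays the medians of these 5 lists lay between -0.138 and -0.005.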
